A study of Homo sapiens with 9 samples.

Results

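The regions described are the GFP ChIP-seq peaks of cells carrying eGFP-tagged ZNF395 in 786-O and A498, a pair of established human lines that come from clear cell carcinoma of the kidney, compared with each other. They are all 20034 peaks listed for tagged 786-O and all 7718 listed for tagged A498, together 27752 of the 52875 peaks in the 5 lists of the series. In both tagged groups eGFP was knocked in at ZNF395, with donor and guide plasmids delivered by electroporation, and chromatin was precipitated with a GFP antibody (ab290). The labels do not say whether the tagged cells were 1 clone or a pool. Parental cells of each line, which carry no tag, were precipitated with the same antibody and gave 3361 peaks in 786-O and 1563 in A498; these lists show where the antibody gives peaks without eGFP-ZNF395. A MYC ChIP-seq of parental 786-O, with 20199 peaks, was set beside the tagged lists as a separate readout. In the labels, A498 stands only in the titles, while the line given for these samples is 786-O, and the target given for the MYC sample is P300; names here follow the titles. Peaks give no gene expression, so the lines could not be checked against marker genes. With 1 library per group there is no replicate behind any difference, and no p-value is given. Ranges in brackets are exact 95% binomial intervals; they count peaks as if independent and hold no error other than that of counting.

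ZNF395 is a zinc finger transcription factor that is induced by low oxygen in several cell types and highly expressed in clear cell renal cell carcinoma. Both lines lack functional VHL, the ubiquitin ligase subunit that marks hypoxia-inducible factors for degradation. In ChIP-seq, fragments of fixed chromatin held by an antibody are sequenced, and a peak is a stretch where they pile up above a control library. MYC, a transcription factor of growth genes, binds many active promoters.

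Most A498 peaks lay at a 786-O peak, while most 786-O peaks had no counterpart in A498. Of the 7718 peaks of tagged A498, 4368 met one of tagged 786-O by at least 1 bp (56.6%, 55.5 to 57.7). In the other direction, 4097 of the 20034 tagged 786-O peaks overlapped an A498 peak (20.5%, 19.9 to 21.0). These are called common peaks. The remaining 15937 peaks of 786-O (79.5%) are called 786-O-only and the remaining 3350 of A498 (43.4%) A498-only, which says that a peak is missing from the other list and not that the factor is absent there. The lists differ in length, and with the 786-O list limited to its 7718 highest scores the shares came closer, at 47.1% of A498 and 43.6% of 786-O peaks. They were 18.6% and 7.18% when the overlap had to cover 50% of both peaks.

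The sites of highest score in each line were called in the other line too. Scores were used only as ranks within a list, with rank 1 the highest. All of the 10 highest peaks of each list, 96 of the 100 highest in 786-O and 93 of the 100 highest in A498 overlapped a peak of the other line. Among the 1000 highest, the counts were 829 in 786-O and 902 in A498. The site of best rank sum without a parental peak, chr11:8008444-8009350 in hg19, was first in both lists, and the A498 peak there, chr11:8008542-8009322, had its midpoint 35 bp away. It had no MYC peak, and the nearest MYC midpoint was 81.4 kb distant. The site chr19:49621787-49623557 ranked 3 in 786-O and 7 in A498, with a MYC peak of rank 4616 of 20199. At chr5:25544631-25545427 the ranks were 2 and 12, and the nearest MYC midpoint was 4866 kb away. Thus 2 of the 3 leading sites stood far from any MYC peak.

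The other 7 of the 10 leading common sites without a parental peak had ranks of at most 34 in 786-O and 25 in A498. Those at chr12:4429864-4430999 (ranks 6 in 786-O and 9 in A498), chr16:68297870-68298840 (10 and 8) and chr11:34378905-34379949 (12 and 11) were close in rank in both lines. The site chr1:222817163-222818009 ranked 22 and 10, and chr9:110103253-110103968, which had no MYC peak, ranked 17 and 15. Unequal ranks were seen at chr16:89159947-89160853 (9 and 25) and chr16:4233133-4234893 (34 and 2). A MYC peak was present at 7 of the 10 sites. Among all common peaks without a parental peak the share was 87.6% in 786-O and 85.4% in A498, so the 10 sites did not exceed their class. Over the whole lists it was 60.6% of tagged 786-O and 46.8% of tagged A498 peaks. The 10 peaks were 716 to 1771 bp wide in 786-O.

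Some of the strongest common sites also had a GFP peak in parental cells. The 5 of best rank sum all overlapped a parental 786-O peak. All but the last were high in the tagged lists and lower in the parental list. At chr1:46597939-46599238 the ranks were 13 in tagged 786-O, 4 in tagged A498 and 3255 of 3361 in parental 786-O. The sites chr1:184020409-184021352 (18 and 6), chr4:106629411-106630348 (20 and 5) and chr21:34914223-34916269 (7 and 20) had parental 786-O ranks of 999, 1111 and 1761. None of these had a parental A498 peak. The fifth, chr17:19091226-19091571, differed from them: it ranked 32 and 3 in the tagged lists, with rank 1 in parental 786-O and rank 4 in parental A498, and had no MYC peak.

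**Figure D1:**
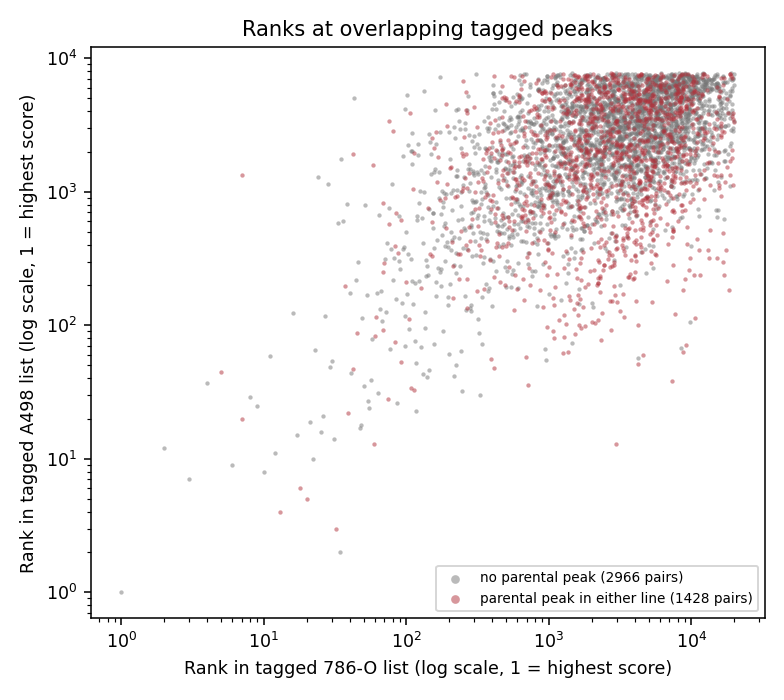
Rank in the tagged 786-O list (x axis, log scale) against rank in the tagged A498 list (y axis, log scale) at the 4394 overlapping pairs of peaks, with rank 1 the highest score; each point is 1 pair, grey without (2966) and red with (1428) a parental peak of either line. The best-ranked pairs lie near the lower left corner in both lists, while pairs of low A498 score spread over most 786-O ranks.

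Across common sites the order of strength was partly shared. The common peaks formed 4394 overlapping pairs, and the ranks of both lists had a Spearman's rho of 0.41 across them, given as a description because the pairs come from the same 2 libraries. The rho was 0.47 in the 2966 pairs without a parental peak and 0.26 in the 1428 pairs with one. Pairs in the highest 10% of A498 had a median 786-O rank of 898.5, and pairs in the lowest 10% had a median of 5041. A498 peaks of low score that had a partner thus still lay at 786-O peaks of the upper part of that list: in each of the 10 parts of A498 the median partner was within the highest 26.5% of 786-O.

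Some common sites stood high in one line and low in the other, and the 5 most unequal in each direction are named. In the 245 pairs of the lowest 10% of A498, the first quartile of 786-O partners was at the highest 12.3% of that list. The largest excess in 786-O among pairs without a parental peak was at chr2:97001345-97002017, with a rank of 309 of 20034 in the former and 7608 of 7718 in the latter line. It was followed by sites starting at chr10:101988655 (688 and 7659), chr7:148395353 (667 and 7624), chr7:139477050 (630 and 7454) and chr2:24582671 (1194 and 7691). All 5 had a MYC peak, as did 2622 of all 2966 pairs without a parental peak. The 786-O peaks at these 5 sites were 673 to 1586 bp wide. In the opposite direction, chr17:54671033-54671363 ranked 18769 in 786-O and 1108 in A498, with no MYC peak. Next came sites starting at chr11:10772620 (16837 and 625), chr19:4058457 (15329 and 731), chr21:43429347 (15091 and 642) and chr5:150020157 (18068 and 1927), and 3 of these 5 had a MYC peak. The 786-O peaks at these sites were 207 to 686 bp wide, and only the widest, at chr21:43429347, fell within the range of the first 5.

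The share found in the other line fell from the top to the bottom of both lists. Each list was divided by rank into 10 parts of 10% each. Of 786-O peaks, the share called in A498 was 73.5% (71.5 to 75.4) in the highest 10%, 45.7% in the next and 2.10% (1.51 to 2.82) in the lowest. In A498 it was 90.4% (88.1 to 92.4) in the highest 10%, 87.2% in the next and 31.7% (28.5 to 35.1) in the lowest. Leaving out peaks at parental sites gave 68.9% and 1.40% for the highest and lowest 10% of 786-O, and 90.9% and 26.9% for A498. Line-only peaks were therefore more often of low rank: 60.3% of the 786-O-only and 71.7% of the A498-only peaks lay in the lower 50% of their list. The highest 10% held 531 of the 786-O-only and 74 of the A498-only peaks.

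**Figure D2:**
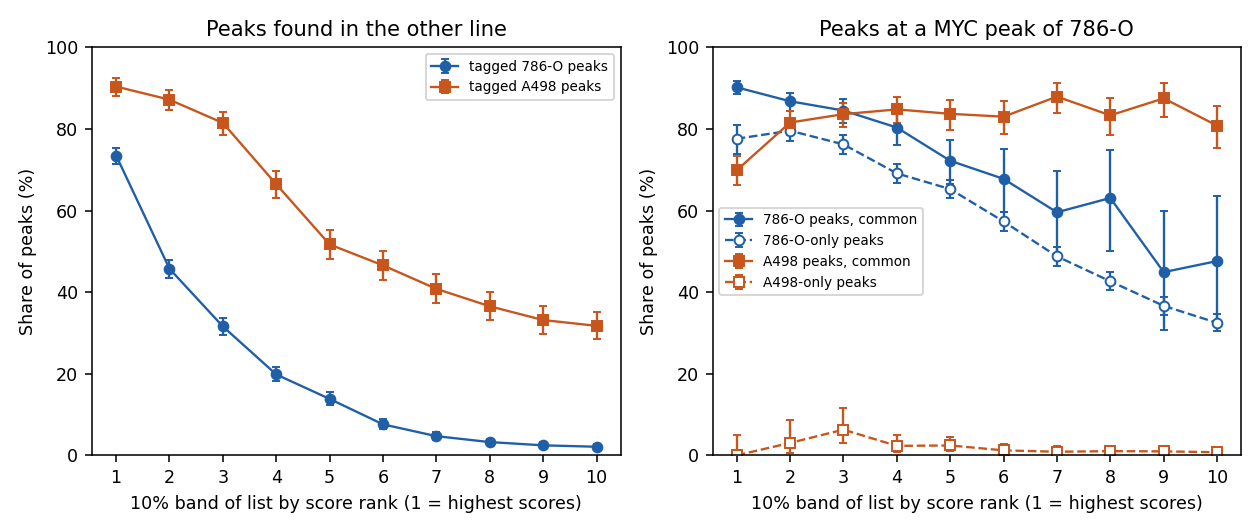
Left, share of tagged peaks (y axis, %) found in the other line by 10% band of the list (x axis, band 1 = highest scores), for 786-O (blue circles) and A498 (orange squares). Right, share of common (filled, solid) and line-only (open, dashed) peaks at a 786-O MYC peak. Bars are exact 95% binomial intervals; the left curves fall from 73.5% to 2.10% and from 90.4% to 31.7%, and the A498-only points on the right stay at or below 6.29%.

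Common peaks overlapped parental peaks more often than line-only peaks did. In all, 2610 tagged 786-O peaks (13%) and 1290 tagged A498 peaks (16.7%) overlapped a parental peak of either line. Among common peaks the shares were 31.1% (29.7 to 32.6) in 786-O and 27.5% (26.2 to 28.8) in A498. They were 8.38% (7.95 to 8.82) for 786-O-only and 2.66% (2.14 to 3.26) for A498-only peaks. In A498 the gap came mainly from the parental 786-O list, met by 26.4% of common and 1.19% of A498-only peaks. That list is of the line whose tagged peaks define the classes. At parental A498 peaks the shares were 10.5% and 2.24%. Common peaks were also of higher rank, and within the highest 10% of 786-O the shares were 34.4% (32.0 to 36.9) for common and 17.9% (14.7 to 21.4) for 786-O-only peaks. In the highest 10% of A498 the intervals of both classes overlapped, at 46.8% (43.0 to 50.6) of 697 common and 50.0% (38.1 to 61.9) of 74 A498-only peaks. In the lowest 10% of A498 a parental peak lay at 20.8% of the common and 0.190% of the A498-only peaks. The higher parental share of common peaks thus held within bands of rank in both lists, outside the top of A498. Width was not held, and common peaks were also wider, with medians of 958 and 702 bp in the highest 10% of 786-O. The part of width in the parental shares was not tested. The shares of the line-only classes depend on the rule and the list length: with 50% reciprocal overlap that of A498-only peaks was 12.3%, and in the upper 50% of each list that of 786-O-only peaks was 15.1%, in both cases below that of the common peaks.

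Common peaks met both parental lists. Of the common 786-O peaks, 1223 were at a parental 786-O peak and 459 at a parental A498 peak, and 407 were at both. Among 786-O-only peaks the counts were 1215, 328 and 208. The parental lists differ in length, and common 786-O peaks took up 39.3% of the parental 786-O and 31.1% of the parental A498 list. Tagged A498 peaks at a parental 786-O peak were found in tagged 786-O in 1152 of 1192 cases (96.6%). Those at a parental A498 peak were found there in 460 of 535 cases (86.0%). With a parental peak of either line, 93.1% of A498 and 48.9% of 786-O peaks were found in the other line. Rank was not held in these shares. Without a parental peak of either line, 49.3% (48.0 to 50.5) of A498 and 16.2% (15.7 to 16.8) of 786-O peaks were found in the other line. How far antibody background contributes to the common peaks was not tested.

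The strongest 786-O-only site without a parental peak was chr7:25899886-25900619, with rank 14 of 20034. Its nearest A498 peak lay 54.4 kb away between midpoints and the nearest MYC midpoint 2.04 kb away. The next was chr7:2547622-2548843, of rank 52, which had a MYC peak of rank 2103 and an A498 peak at 11.1 kb. At chr13:76123278-76124203 the 786-O rank was 124 and the MYC rank 306, and the nearest A498 peak was at 1777 kb. These 3 sites were therefore not near misses of the overlap rule.

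Sites starting at chr9:133837953 (rank 128) and chr9:131614334 (rank 200), chr1:23888744 (rank 164) and chr2:91997439 (rank 178) had neither an A498 nor a MYC peak. Those starting at chr20:49262116 (rank 136), chr16:619584 (rank 168) and chr7:120590437 (rank 220) had a MYC peak. Of the 10 sites, 5 had a MYC peak, beside 53.6% of all 786-O-only peaks without a parental peak. The A498 peak closest to any of the 10 sites was 3.95 kb from the site on chromosome 1. Their ranks, 14 to 220, show that the very top of the 786-O list held few sites missing from A498.

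The 3 strongest 786-O-only sites with a parental peak of either line overlapped a parental A498 peak although tagged A498 had none. The site chr17:61993934-61994759 ranked 15 in tagged 786-O, 2811 in parental 786-O and 1205 of 1563 in parental A498. On chromosome 3, chr3:52436197-52438016 (rank 19) and chr3:52440725-52441590 (rank 270) had parental A498 peaks of rank 1369 and 1247 and no parental 786-O peak. In all, 328 of the 15937 786-O-only peaks (2.06%) lay at a parental A498 peak, so these positions gave a peak in untagged but not in tagged A498 cells. The share was lower than among common 786-O peaks (11.2%), and 787 of all 20034 tagged 786-O peaks lay at a parental A498 peak.

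The strongest A498-only site without a parental peak was chr3:153839402-153839870, of rank 40 of 7718 and 469 bp wide. It stood 131.4 kb from the nearest tagged 786-O peak and 3038 kb from the nearest parental A498 peak. The next, chr2:47798417-47798804 (rank 103), was 168 kb from a 786-O peak. Like these, the site chr19:34286246-34287237 (rank 263, 992 bp) had no 786-O peak within 10 kb, the nearest being at 17.7 kb.

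Others of the 10 lay close to parental or 786-O peaks without touching them. The sites starting at chrX:61718939 (rank 177), chr4:49515493 (rank 251) and chr4:49299123 (rank 298), chr7:5560685 (rank 264) and chr8:86785891 (rank 277) had a parental A498 peak at 0.321, 1.11, 5.49, 2.49 and 0.494 kb. Of these, the sites at chr4:49299123 and chr8:86785891 also had no 786-O peak within 10 kb, the nearest being at 19.6 and 409.8 kb. Those starting at chr17:72747742 (rank 242) and chr6:34205935 (rank 320) had a tagged 786-O peak at 1.97 and 0.936 kb. None of these 10 sites had a MYC peak, beside 1.13% of all 3261 A498-only peaks without a parental peak. The 3 strongest A498-only sites at a parental peak, starting at chr17:22250012 (rank 77), chrX:61711224 (rank 81) and chr21:9696740 (rank 84), were 169 to 215 bp wide and all had a parental A498 peak, of ranks 89, 102 and 129.

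A498-only peaks near parental peaks were frequent at the top of the list and rare below it. Of the 74 A498-only peaks in the highest 10%, 57 were on chromosomes 1 to 22 and X. Of these 57, 36 (63.2%, 49.3 to 75.6) had a parental A498 midpoint within 10 kb. The share was 134 of 3298 (4.06%, 3.42 to 4.79) over all A498-only peaks and 12.5% over common A498 peaks of all ranks. For common peaks in the highest 10% of A498 this distance was not taken. There, 46.8% of common and 50.0% of A498-only peaks overlapped a parental peak of either line, so parental peaks were frequent at both classes. For 786-O-only peaks the share within 10 kb of a parental 786-O midpoint was 20.5% (17.1 to 24.2) in the highest 10% and 15.0% over all. Whether such peaks are antibody background was not tested.

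Few line-only peaks lay next to a peak of the other line. The median distance from an A498-only midpoint to the nearest tagged 786-O midpoint was 110.4 kb, and 74 of 3298 (2.24%) were within 1 kb. From 786-O-only peaks the median distance to a tagged A498 midpoint was 94.1 kb, and 459 of 15868 (2.89%) were within 1 kb. By contrast, the midpoints of overlapping pairs were a median of 103.5 bp apart, with quartiles of 42 and 219.5 bp, although overlap itself limits that distance.

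Common and line-only peaks differed in width, and the lists differed from each other. In 786-O the median width was 818 bp for common and 324 bp for 786-O-only peaks. In A498 it was 298 and 210 bp. Common peaks were of higher rank, but within the highest 10% of 786-O the medians were still 958 and 702 bp, and within the highest 10% of A498 451 and 234 bp. The middle 50% of A498-only peaks spanned 178 to 261 bp. Wider peaks also have more room to overlap another peak, and this part of the difference was not tested.

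**Figure D3:**
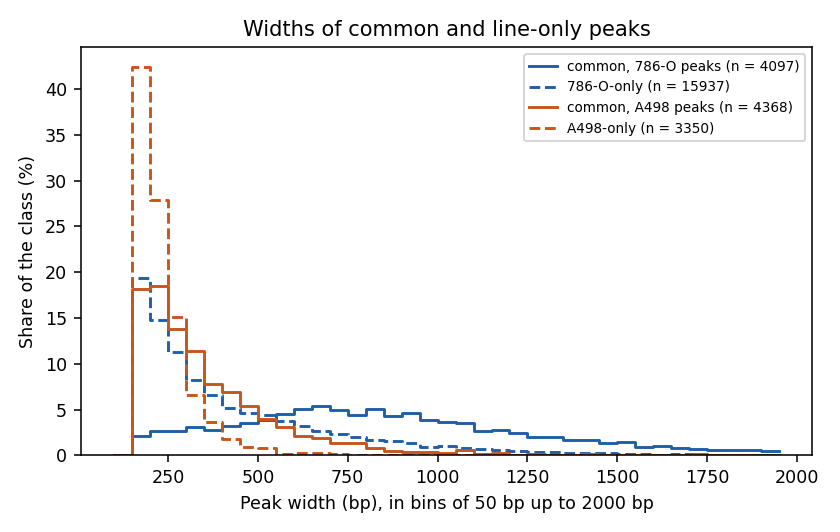
Share of each class of peaks (y axis, %) by width (x axis, bp, in bins of 50 bp) for common (solid) and line-only (dashed) peaks of 786-O (blue) and A498 (orange); the widest peaks lie beyond the axis but count in the shares. A498-only peaks, with a median of 210 bp, crowd at the narrow end, and common 786-O peaks, with a median of 818 bp, are spread broadly.

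In most pairs the A498 peak was a smaller interval within the 786-O peak. It lay wholly inside in 3635 of the 4394 pairs (82.7%), while the 786-O peak lay inside the A498 peak in 115 (2.62%). One A498 peak was found at 3820 of the 4097 common 786-O peaks, 2 at 260, and 3 or more at 17. The largest number was 6, at chr13:110433965-110439983, a 786-O peak of 6019 bp and rank 466 that overlapped a parental 786-O peak. Of the common A498 peaks, 4346 met 1 peak of 786-O and 22 met more.

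MYC peaks of 786-O were rare at A498-only peaks and common at the other classes. Of the common peaks, 83.5% (82.3 to 84.6) of those of 786-O and 81.6% (80.4 to 82.7) of those of A498 overlapped a MYC peak. The share was 54.8% (54.0 to 55.6) for 786-O-only peaks and 1.49% (1.11 to 1.96), or 50 of 3350, for A498-only peaks. MYC was mapped in 786-O, the line in which the A498-only sites had no tagged peak, and the MYC list used here has no A498 counterpart. A low share at sites missing from 786-O can therefore not be told apart from a difference between the lines in which regions give peaks at all.

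The gap in A498 remained within bands of rank and of width. Within each 10% band of the A498 list the MYC share of common peaks was between 69.9% and 87.9%, and that of A498-only peaks between 0% (0 of 74 in the highest 10%, with an exact upper limit of 4.86%) and 6.29%. Among A498 peaks of at most 250 bp it was 75.8% (73.6 to 77.9) of 1619 common and 1.35% (0.923 to 1.90) of 2376 A498-only peaks. In 786-O the difference between classes was smaller once rank was held: 90.2% of common and 77.6% of 786-O-only peaks in the highest 10%, and 47.6% (32.0 to 63.6) and 32.5% in the lowest. With width held, the order in 786-O depended on the width: 17.0% (12.0 to 23.1) of common and 28.0% (26.8 to 29.2) of 786-O-only peaks of at most 250 bp lay at a MYC peak, 56.6% (52.6 to 60.5) and 54.2% (52.9 to 55.5) from there to 500 bp, and 92.5% (91.6 to 93.4) and 86.4% (85.4 to 87.3) of wider peaks. Without parental peaks the shares were 87.6% for common 786-O, 53.6% for 786-O-only, 85.4% for common A498 and 1.13% for A498-only peaks. These shares keep the classes of the whole lists. The A498-only share depends on the overlap rule and on which peaks the lists hold. It was 24.5% when sharing meant midpoints within 200 bp and 41.7% with 50% reciprocal overlap. Under these rules 4567 and 6280 A498 peaks count as A498-only, among them peaks that do overlap a 786-O peak. With the 786-O list limited to the length of the A498 list the share was 12.9%, and in the upper 50% of each list 10.5%. It was 7.02% without the widest 1% of peaks and 6.11% with peaks at parental sites removed from both lists before matching. Without contigs and the mitochondrial genome it stayed at 1.51%.

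The line-only peaks of A498 were spread over the chromosomes unlike the other tagged peaks. Of the A498-only peaks on chromosomes 1 to 22 and X, 14.1% (12.9 to 15.3) were on chromosome 2 and 13.3% (12.2 to 14.5) on chromosome 7, where 8.38% and 7.25% of the common A498 and 7.12% and 5.62% of the 786-O-only peaks lay. Chromosomes 5, 8, 9, 21 and X also held a larger share of A498-only than of common peaks, with intervals that did not overlap. Chromosome 6 held 0.819% (0.540 to 1.19) of the A498-only and 4.06% of the common peaks, and chromosome 3 held 1.39% and 4.61%. On chromosome 18 the A498-only class had 2 peaks. The parental A498 list also exceeded the common A498 peaks on chromosomes 2 (11.4%), 21 (2.84%) and X (3.13%). It did not on chromosomes 7 (5.54%), 5 (3.13%), 8 (4.76%) and 9 (3.76%). On chromosomes 6 and 3 it held 3.98% and 2.63%. Among the 907 A498-only peaks of the upper 50%, 13.5% were on chromosome 2, 11.8% on chromosome 7 and 1.10% on chromosome 6. In A498-only peaks without a parental peak these shares were 14.2%, 13.5% and 0.775%. The excess on chromosome 21 was smaller in the upper 50%, at 1.54% beside 2.55% of all A498-only peaks.

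Seen by chromosome, between 34.2% and 94.6% of the A498 peaks were common. The share was 34.2% of 187 on chromosome X, 38.7% of 137 on chromosome 21, 41.7% of 753 on chromosome 7 and 42.8% of 491 on chromosome 8, and 86.5% of 74 on chromosome 14, 86.7% of 203 on chromosome 6 and 94.6% of 37 on chromosome 18. The share of 786-O peaks that were common covered a narrower range, from 11.2% on chromosome 18 and 11.8% on chromosome 14 to 25.8% on chromosome 9 and 27.3% on chromosome 16. Chromosomes 14 and 18, which had few tagged A498 peaks, were low in the second measure and high in the first.

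**Figure D4:**
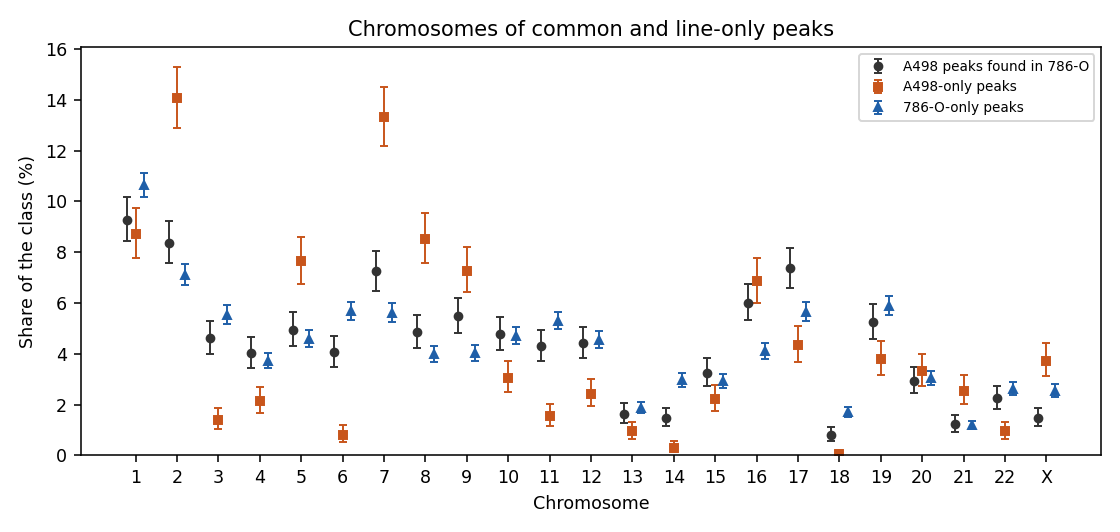
Share of each class of peaks (y axis, %) on each chromosome (x axis), among peaks on chromosomes 1 to 22 and X, for A498 peaks found in 786-O (black circles), A498-only (orange squares) and 786-O-only peaks (blue triangles), with exact 95% binomial intervals. A498-only peaks reach 14.1% on chromosome 2 and 13.3% on chromosome 7 and are at 0.819% on chromosome 6.

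Within these chromosomes the A498-only peaks were uneven as well. In bins of 10 Mb, the 10 fullest held 570 of the 3298 A498-only peaks (17.3%), 4.96% of the common A498 and 3.95% of the 786-O-only peaks; the bins were chosen for this excess, and 6 of the 570 peaks were at a parental peak. The first 10 Mb of chromosome 5 held 92 A498-only and 9 common A498 peaks, beside 45 786-O-only peaks. Chromosome 7 from 150 to 160 Mb held 74 and 27, the first 10 Mb of chromosome 2 held 69 and 8, and chromosome 7 from 50 to 60 Mb held 60 and 8. Chromosome 8 from 130 to 140 Mb followed with 52 and 9. Of the 309 bins with a peak in any of the lists compared, 47 held 50% of the A498-only peaks and 33 held none; the median was 6.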

How the data were processed

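Per the submitters' processing notes, BWA, MACS2 and the hg19 build were used, with no word on roles, versions or settings. The deposited lists have 5 columns without a header, and their peak names state 1 library called against 1 control library. The deposited score was read as a −log10 of a p or q value, since each list begins just above 2; which of these it is was not stated. Reads behind single peaks are unknown, though the labels state an average of 30 to 50 M reads per library. Starts were written 1-based. Ranks were taken within a list, ties going to the wider peak and then by position. A parental flag means overlap of a parental GFP peak of either line by at least 1 bp.

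The loci named were, by rank sum, 10 common pairs without and 5 with a parental peak; by rank, 10 line-only peaks per line without and 3 with one; and 5 pairs per direction with the largest difference in rank percentile. The members, lists and comparisons were chosen with earlier results of these data known. Gene tables and promoter sequences here are of GRCh38, so genes, promoters, motifs and sequences at the hg19 peaks were not analysed here. Overlap rules were tested on simulated data. Work was done in Python 3.11.15 with scipy 1.17.1, pandas 2.3.3, numpy 2.4.6 and, for plots, matplotlib 3.10.9.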

Additional observations from a re-analysis of the deposited data

How the results depend on the processing

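Of 38 alternative values for the 6 shares listed here, 12 stayed within the 95% interval of the reported value and 26 left it; a share has no direction to reverse. The shares are, in order, those of A498 peaks found in 786-O (56.6%), of 786-O peaks found in A498 (20.5%), and of common 786-O (31.1%), 786-O-only (8.38%), common A498 (27.5%) and A498-only peaks (2.66%) at a parental peak. They were 18.6%, 7.18%, 36.4%, 11.2%, 36.2% and 12.3% with 50% reciprocal overlap, and 70.7%, 26.2%, 34.1%, 15.1%, 31.2% and 12.0% in the upper 50% of each list. Midpoints within 200 bp gave 40.8% and 15.7% for the first and second, 9.77% for 786-O-only and 8.82% for A498-only peaks. With the 786-O list limited to 7718 peaks the same 4 shares were 47.1%, 43.6%, 15.0% and 6.64%. Removing the peaks at parental sites from both lists gave 46.1% and 16.2%. Matched against the whole list of the other line, the same peaks gave 49.3% and 16.2%. Without the widest 1% of peaks the first and second were 53.2% and 19.5%, common 786-O peaks had 29.3% and A498-only peaks 4.42%. Stricter matching lowers sharing by construction and moves peaks that overlap by 1 bp into the line-only classes. For all else that moved, the cause was not tested. The common peaks had the higher parental share in both lists under each of the 6 settings run on it. The MYC share of A498-only peaks (1.49%) was between 1.51% and 41.7% under the 7 settings, chosen for it after seeing the data, and that of 786-O-only peaks (54.8%) between 53.6% and 75.2%. Promoter and motif alternatives need hg19 sequence or annotation and were not run. No paired analysis was possible because each group is 1 library. Depth behind single peaks is unknown, so a peak missing from the shorter A498 list cannot be told apart from one below its calling threshold.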

Other observations

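The parental peaks can be read against both tagged lists at once. Of the 3361 parental 786-O peaks, 1164 (34.6%) overlapped both tagged lists, 1397 (41.6%) tagged 786-O alone, 45 (1.34%) tagged A498 alone and 755 (22.5%) neither. Their median ranks in the parental list were 1101.5, 1830, 1195 and 2163, so the peaks found in both tagged lists were on the whole the higher ones. Of the 1563 parental A498 peaks, 473 (30.3%) overlapped both tagged lists and 676 (43.3%) neither. The tagged 786-O list alone held 338 (21.6%) of them and the tagged A498 list alone 76 (4.86%). The latter list is of the same line as these parental peaks but is the shorter, with 7718 peaks covering 2380 kb. Tagged 786-O had 20034 peaks covering 10567 kb, and how far this bears on the counts was not tested.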
